A study of Homo sapiens with 4 samples.

Results

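The 2 arrays described here measured gene expression in MCFDCIS cells transfected with Control siRNA (siOTP NT in the sample titles), out of 4 arrays in the series. They were chosen by their transfection label alone. The other 2 arrays, of cells transfected with Slug siRNA, enter none of the values below. MCFDCIS is a human breast cancer cell line that the study assigns to the basal subtype, and the name is in use for MCF10DCIS.com, a line derived from MCF10A breast epithelial cells by way of HRAS-transformed derivatives. Cells were grown for 48 hours in their medium, total RNA was taken 72 hours after transfection at about 70% confluence, and the biotin-labelled product was hybridised to Illumina bead arrays. The labels call the 2 samples biological replicates 1 and 2 without tying them to separate days or stocks. Both arrays come from a single line on a single chip, and every level is one of transfected cells, since untransfected cells were not analysed here.

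The breast epithelium has an inner layer of luminal cells, marked by the simple keratins and, in part of the cells, by the hormone receptors, and an outer layer of basal or myoepithelial cells, marked by stratified keratins, hemidesmosomes and contractile proteins. Breast cancers of the basal subtype usually lack the hormone receptors and express genes of the basal layer. Slug, the product of SNAI2, is a zinc finger repressor of the Snail family that binds E-box sequences, is present in normal basal breast cells and can repress CDH1, the gene of E-cadherin. Epithelial-mesenchymal transition (EMT) is the programme in which epithelial cells lose junction proteins and gain mesenchymal ones such as vimentin.

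A gene was counted as detected where at least 1 of its probes had a deposited detection p under 0.01 on both arrays, and was then represented by its brightest such probe. Of 20046 measured genes, 9334 (46.6%) were detected. Another 41.6% had no probe with a detection p under 0.05 on either array and are called not above background, and 11.9% lay between those limits. Detected genes were called high in the top 25% by mean intensity (11.6% of measured genes, 939 intensity units or more), low in the bottom 25% (11.6%, 207 or less) and middle otherwise (23.3%). A percentile below is a gene's place among the detected genes, whose median is 50 by construction. In the step of the detection p just inside the threshold, 0.00909, lay 73 genes with a median mean intensity of 138, and in the first step outside it, 0.0104, lay 18 genes with one of 138.

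Intensities are given in the order replicate 1 and replicate 2, on a linear scale with the background left in. The negative controls had a median of 108 on the first array and 112 on the second, and the lowest detected signals were 132 and 137. A single group was described, so no test was run. Gene sets of known expression served as a check. All 12 measured genes of a list of general reference genes were detected, 10 of them high. Ribosomal proteins are made in every growing cell, and 71 of 75 such genes were detected, 65 of them high, while RPL3L and RPL10L, paralogs of restricted tissues, were among the 4 not above background. Olfactory receptor genes, which most tissues keep silent, were detected in 2 of 371 cases (0.539%). The limit of the method shows in the ribosomal family, where RPL10, a ribosomal gene of every tissue, read 124 and 114 on its brighter probe and was not above background. Brightness depends on the probe as well as on the mRNA, so the classes order probes and not transcripts, and a gene not above background is not shown to be silent. Of 271 genes of the lists below with several probes, 59 had both a detected probe and one not above background.

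The genes that mark the line were above background on both arrays. SNAI2, the gene of Slug, read 579 and 600.5 intensity units, at percentile 63.2 of the detected genes, and its other probe read 371 and 345. The basal keratin KRT5 read 4319 and 4272 and lay at percentile 95. KRT15, a keratin of basal cells in stratified epithelia, read 13002 and 10279, and KRT7, a keratin of simple epithelia, read 3538 and 3947. Keratins of both layers were thus called high in the same RNA. CDH1 read 1648 and 1650.4, the same to within a few units on the 2 arrays. VIM, the mesenchymal intermediate filament vimentin, read 4196 and 2562, and its other probe 2859 and 1643, so both VIM probes were brighter on the first array. Epithelial CDH1 and mesenchymal VIM were therefore both in the high class. In RNA of a whole culture, cells that express both programmes cannot be told apart from a mixture of cells that each express one, nor fewer cells of a type from less RNA per cell.

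Promoters of some of the markers are shown from the RefSeq promoter table (GRCh38.p14), which spans 250 bases before to 50 after each gene's start in that table. Of the 6 markers 2 are shown, and SNAI2, KRT15, KRT7 and CDH1 are named only. They let the basal keratin and the mesenchymal filament gene be set side by side at the sequence that Slug is known to bind. Capitals mark the E-box CAGGTG, searched on both strands, where its reverse complement is CACCTG.
KRT5, chr12:52520345-52520644, minus strand: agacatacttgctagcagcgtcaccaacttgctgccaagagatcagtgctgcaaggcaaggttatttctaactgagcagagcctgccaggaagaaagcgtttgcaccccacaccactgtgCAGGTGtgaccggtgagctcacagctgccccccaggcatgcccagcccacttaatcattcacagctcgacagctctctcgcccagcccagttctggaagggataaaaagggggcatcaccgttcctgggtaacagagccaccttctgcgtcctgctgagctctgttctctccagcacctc
VIM, chr10:17227991-17228290, plus strand: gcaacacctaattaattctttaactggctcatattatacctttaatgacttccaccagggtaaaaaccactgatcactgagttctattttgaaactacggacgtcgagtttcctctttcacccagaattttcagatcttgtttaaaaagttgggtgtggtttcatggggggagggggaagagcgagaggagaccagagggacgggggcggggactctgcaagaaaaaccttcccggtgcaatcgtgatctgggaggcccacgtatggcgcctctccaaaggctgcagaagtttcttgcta
The KRT5 window held 1 E-box, which begins 130 bases before the start, and the VIM window held 0. Among all 35116 promoters of the table, 20.6% held the motif. These letters describe the windows only, and binding was not measured.

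Across 33 gene lists the share of measured members detected ranged from 12.5% to 100%. It was 53.8% over the lineage lists together, 68.6% for junction genes, 56.4% for receptors, 40.4% for ligands, 48.4% for matrix genes, 94.1% for cell cycle genes and 19.5% for markers of other cell types, against 46.6% of all measured genes. Cell cycle genes thus lay far above that background, matrix and ligand genes close to it and other cell types below it.

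**Figure D1:**
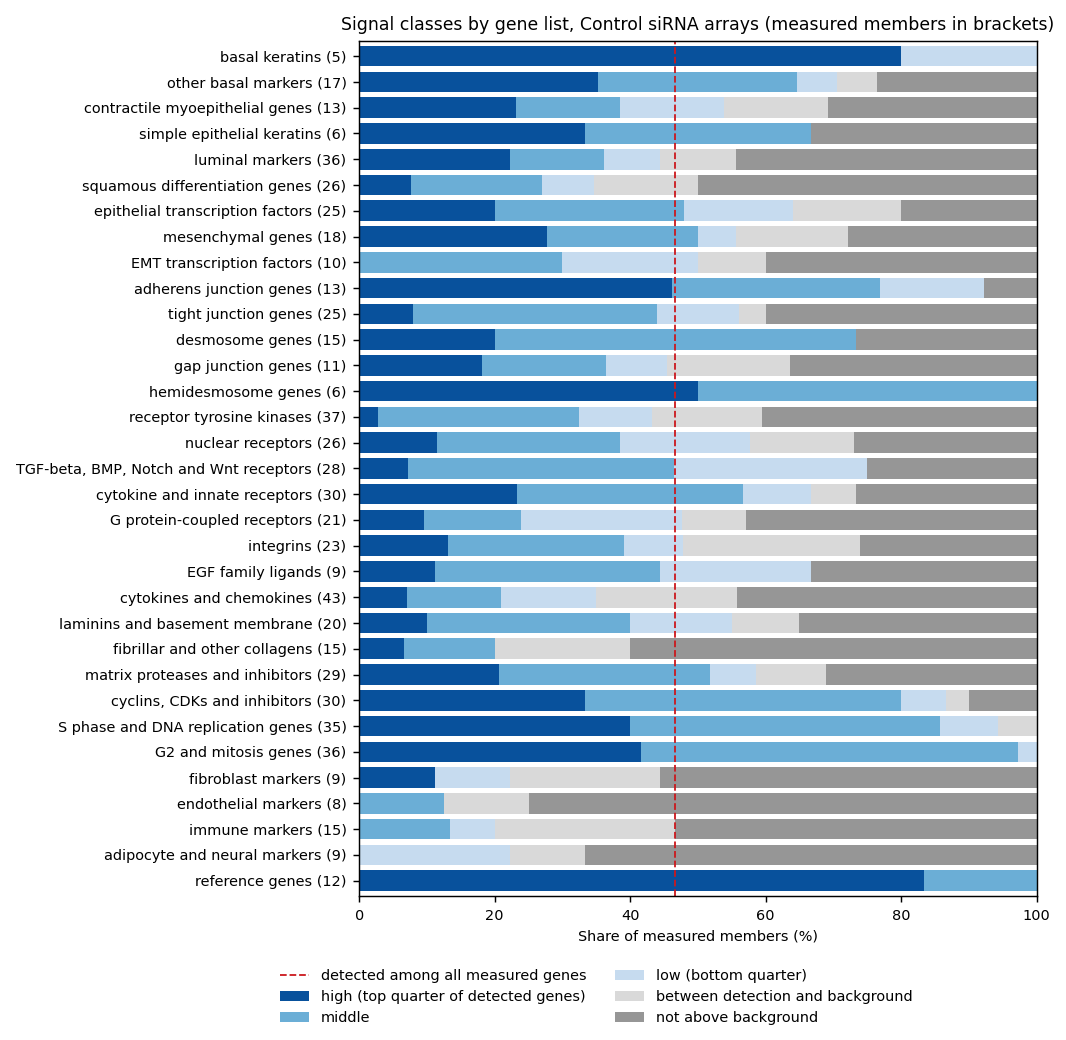
Each bar shows, for one gene list, the share of measured members in each signal class on the 2 Control siRNA arrays, with the number of measured members in brackets. The dashed line marks the 46.6% of all measured genes that were detected, and the cell cycle, basal keratin and hemidesmosome lists reach far past it.

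Few keratin genes were detected, and those mixed basal and simple types. Of 49 measured keratin genes 12 were detected, 24.5% against the background of 46.6%. The high class, with 11.6% of all genes, held 7 of the 49. Among basal keratins 5 of 5 measured members were detected, with KRT16, a keratin of activated keratinocytes, at 1714 and 2117 and KRT6C at 1328 and 1872, whose signal is uncertain because KRT6A and KRT6B, not analysed here, are near-identical to it. KRT14, the usual type I partner of KRT5, was the exception in the list. It read 144 and 168, in the low class and just above the detection limit, on its only probe. KRT17 was not analysed here.

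Simple epithelial keratins were split. KRT8, the type II simple keratin, read 2657 and 2821, and its partner KRT18 read 517 and 529, in the middle class, with 183 and 196 on another probe. KRT23 was in the middle class at 270.1 and 216. KRT19, which marks luminal cells, read 121 and 122 and was not above background, nor was the intestinal keratin KRT20 (112 and 113). In all, 4 of 6 members of this list were detected (66.7%, against 46.6% of all genes).

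Other markers of basal cells were mostly detected, and contractile markers of myoepithelium about as often as genes at large. Of 17 basal markers 12 were detected (70.6%, against 46.6% of all genes), with a median percentile of 72.4. Of the 17, 6 were high, a class of 11.6% of all genes. S100A2, a calcium-binding protein of basal epithelial cells, read 12163 and 13337. CD44, the hyaluronan receptor, read 5233 and 4316. The caveolae coat gene CAV1 read 7269 and 8471, its partner CAV2 1878 and 2325, and the 14-3-3 gene SFN 1508 and 1713. All of these were in the high class by mean intensity. TRIM29, NGFR, JAG2, VSNL1 and MME were in the middle class, CRYAB was low (150.1 and 141), and THY1, ID4, DKK3 and CXCL14 were not above background.

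Of 13 contractile genes 7 were detected (53.8%, against 46.6% of all genes), with a median percentile of 69.5. Those in the high class were tropomyosins and caldesmon, which non-muscle cells also make, with TPM2 at 4433 and 4369, TPM1 at 1789.7 and 1753 and CALD1 at 1423 and 1025. ACTA2, smooth muscle actin, read 919.8 and 564 and differed between the arrays. Several smooth muscle genes were not detected. MYH11, CNN1, DES and MYL9 were not above background, TAGLN (126 and 129) and MYLK (162 and 137) lay between the limits, and OXTR, the oxytocin receptor through which myoepithelium contracts, was low (173 and 194).

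Luminal markers were detected about as often as genes at large. Of 36 measured, 16 were detected, 44.4% and so close to the background of 46.6%. Another 4 lay between the limits and 16 were not above background. The high class, which held 11.6% of all genes, held 8 of the 36, and the detected ones had a median percentile of 72.7. Markers shared by many epithelia were bright. EPCAM, the epithelial adhesion molecule, read 6348 and 6271. ALDH1A3, a retinaldehyde dehydrogenase of luminal progenitor cells, read 7162 and 6627, and CA12, a carbonic anhydrase, 6263 and 4277. The mucin gene MUC1 read 2638 and 2017, and XBP1, LCN2, SLPI and CD24 were also high.

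The transcription factors and receptors of the hormone-responsive luminal cell were weaker or undetected. FOXA1, a pioneer factor for the estrogen receptor, read 724 and 804 and was in the middle class. GATA3, the main luminal regulator, read 203 and 191, in the low class. ESR1, the estrogen receptor gene, read 109 and 109.9, and PGR, the progesterone receptor gene, 111 and 105, at the level of the negative controls. Also not above background were the alveolar regulator ELF5, the luminal factor SPDEF, the receptor gene KIT, the trefoil genes TFF1 and TFF3, the casein genes CSN2 and CSN3 and the milk protein gene LALBA.

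Of 26 genes of squamous differentiation 9 were detected (34.6%), below the background of 46.6%. KLK5, a secreted kallikrein protease, read 8331 and 8187, and KRT10, a keratin of cells above the basal layer, read 1415 and 1576. The small proline-rich genes of the cornified envelope were in the middle class, with SPRR1A at 489 and 533 and SPRR1B at 397 and 448. Genes of late differentiation were missing from the detected set. IVL, FLG, LORICRIN, KRT1, KRT2, KRTDAP and KLK7 were not above background, and the transglutaminase gene TGM1 lay between the limits (127 and 133).

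Among 25 transcription factors of epithelia 16 were detected (64%). MYC, the growth regulator, read 4257 and 4449. SOX9, a factor of progenitor cells, read 3343 and 2309.5, and the AP-2 factors read 1946 and 1597 for TFAP2A and 1826 and 1228 for TFAP2C. OVOL2, a repressor of mesenchymal genes, read 1000.3 and 1186. Other regulators of the epithelial state sat in lower classes. ESRP1, a splicing regulator of the epithelial state, read 261 and 212, and GRHL2, an activator of CDH1, read 199 and 186. ELF3, EHF, KLF5, RUNX1, BNC1 and SOX15 were in the middle class, and GRHL3, OVOL1, SOX2 and SOX10 were not above background.

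Vimentin was high, while N-cadherin was low and fibronectin was not above background. Of 18 mesenchymal genes 10 were detected (55.6%, against 46.6% of all genes) and 5 were not above background. The high class, with 11.6% of all genes, held 5 of the 18. Besides VIM the high ones were THBS1, the matricellular thrombospondin (1765 and 2243), the receptor kinase gene AXL (958 and 1175), S100A4 (1122 and 959) and the lysyl oxidase gene LOX (1085 and 804), the last just past the limit of the class. FN1, the fibronectin gene, read 111 and 113 on the brightest of its 3 probes, none of which was above background. CDH2, the gene of N-cadherin, read 162 and 172, in the low class. The fibroblast genes POSTN, FBN1 and MMP2 were not above background. SPARC, a collagen-binding protein, read 982 and 539 and was brighter on the first array, as VIM was.

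SNAI2 was one of 5 factors detected among 10 linked to EMT, 50% and so near the 46.6% of all genes. None of the 10 was in the high class, which held 11.6% of all genes. TWIST1 read 331 and 326 and TWIST2 176 and 186, and the E proteins with which they pair read 257 and 282 for TCF3 and 158 and 151 for TCF4. The other Snail family genes and both ZEB genes, which also repress CDH1, were not above background. SNAI1 read 96.6 and 114, ZEB1 105 and 102 and ZEB2 113 and 108, and SNAI3 was likewise not above background. PRRX1 lay between the limits.

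**Figure D2:**
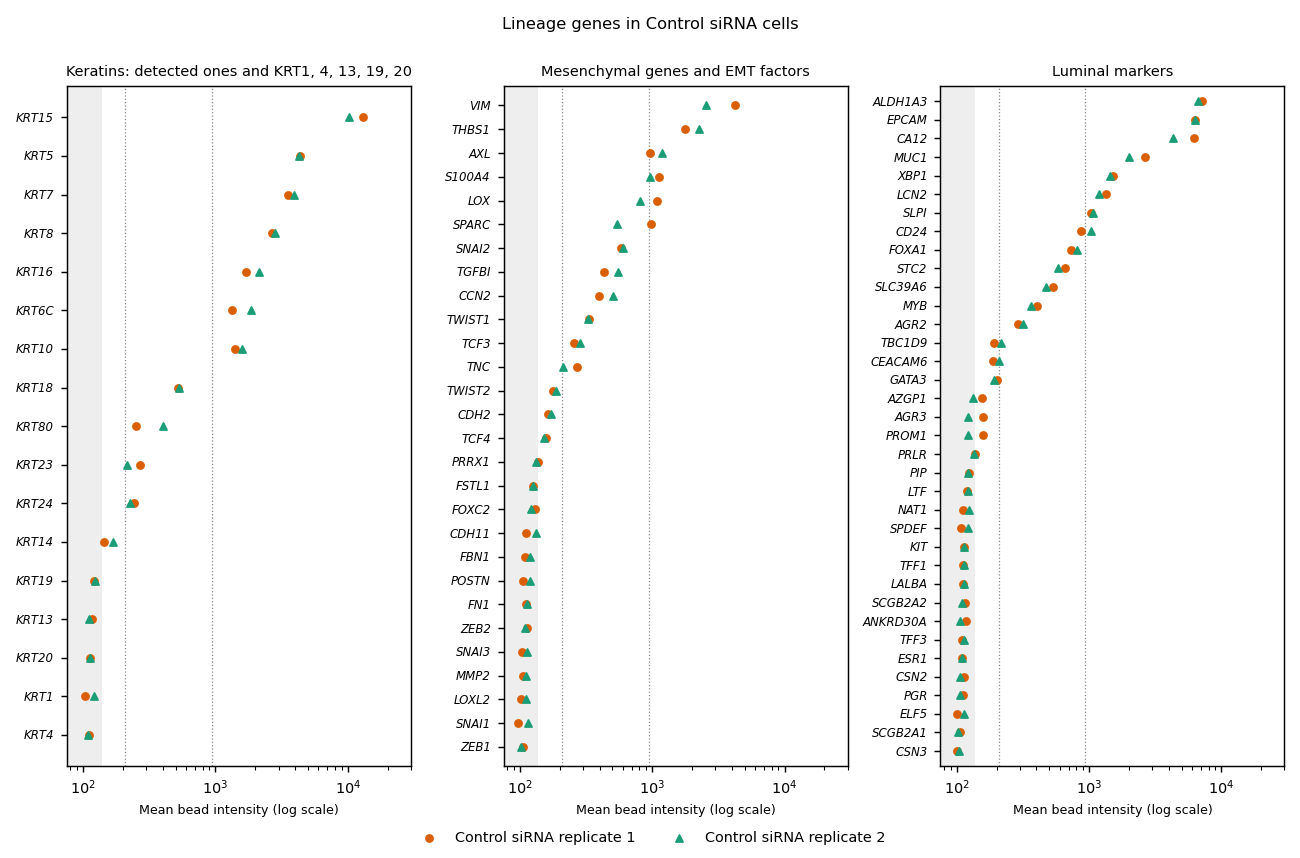
Mean bead intensity of keratins, mesenchymal and EMT genes, and luminal markers on the 2 Control siRNA arrays (points for replicate 1, triangles for replicate 2, log axis). The grey band ends at the higher of the detection limits of the 2 arrays and the dotted lines bound the low and high classes. KRT15, KRT5, KRT7 and KRT8 lie in the high class together with VIM and EPCAM, while ESR1, PGR, FN1 and ZEB1 lie in the grey band.

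Adherens junctions, in which cadherins join neighbouring cells and catenins link them to actin, were well represented. Of 13 genes 12 were detected by at least 1 probe (92.3%, against 46.6% of all genes), with a median percentile of 71.3. The high class, which held 11.6% of all genes, held 6 of the 13. Where every probe of a gene had to be detected, 6 of the 13 were. Beside CDH1, CDH3, the gene of the basal P-cadherin, read 1347 and 1262. The actin-linking alpha-catenin gene CTNNA1 read 7266 and 6644, vinculin (VCL) 2564 and 2159, and plakoglobin (JUP), which also serves desmosomes, 975 and 1111. Beta-catenin (CTNNB1) read 656 and 500.2, in the middle class, and 2 of its 7 probes were detected. CTNND1, the p120-catenin gene, read 146 and 142 on its brightest probe, the only one of 5 detected. NECTIN4 (121 and 120.0) was the single gene of the list not above background.

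Tight junctions seal the space between epithelial cells, and claudin genes were detected somewhat less often than genes at large. Of 23 claudin genes 8 were detected (34.8%, against 46.6% of all genes) and 2 were high, a class of 11.6% of all genes. CLDN1 read 2548 and 2787 and CLDN7 2631 and 2734. CLDN4 read 143 and 148 and was low, and CLDN3 (110.1 and 121) was not above background, nor was the endothelial CLDN5. OCLN, the gene of occludin, read 99.7 and 112 on the brighter of its 2 probes. The scaffold gene TJP1 read 443 and 502, and CRB3, CGN, LSR, MARVELD3 and CXADR were in the middle class. Over the whole list 14 of 25 genes were detected (56%).

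Desmosomes, the spot junctions that anchor keratin filaments, showed 11 of 15 genes detected (73.3%, against 46.6% of all genes). None of the 15 was low, a class of 11.6% of all genes and so of few members in a list of this size. Among the desmosomal cadherins DSG2, the desmoglein of simple epithelia, read 3048 and 2419.8, and DSG3, that of basal keratinocytes, 1466 and 1142. DSC2 read 851 and 777 and DSC3 647 and 516. The linker gene DSP, for desmoplakin, read 857 and 858, and PERP 1359.8 and 1216. The desmosomal cadherins of differentiated keratinocytes, DSG1 and DSC1, were not above background, and neither were DSG4 and the plakophilin gene PKP1 (116 and 121), while PKP2, PKP3 and PKP4 were in the middle class.

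Gap junction channels are built from connexins, and 5 of 11 genes of that list were detected (45.5%), a share near the 46.6% of all genes. GJB2, a connexin gene of many epithelia, read 3153 and 3250.5 and GJC1 5406 and 4319.8, although the other GJC1 probe read 126 and 137 and was not detected. GJA1, a connexin gene of basal breast cells, read 335 and 362 and GJB5 393 and 402. The luminal connexin gene GJB1 and the keratinocyte one GJB6 were not above background.

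Hemidesmosomes anchor basal cells to the basement membrane through integrin alpha-6 beta-4 and laminin-332, and all 6 measured genes of that list were detected by at least 1 probe. Where every probe of a gene had to be detected, 1 was. ITGB4 read 3906 and 3239 and its partner ITGA6 635 and 504. The tetraspanin gene CD151, whose product binds laminin-binding integrins, read 9154 and 8901, and LAMB3, the beta chain of laminin-332, 1966 and 2222. The plakins that tie them to keratin were in the middle class, with PLEC at 314 and 294 on 1 of 8 probes, the other 7 being not above background, and DST at 269.7 and 233. LAMA3 and COL17A1 were not analysed here.

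Of 23 listed integrin genes outside the hemidesmosome 11 were detected, close to the background of 46.6%. ITGB1, the beta chain shared by many collagen, laminin and fibronectin receptors, read 5698 and 4653. ITGA3, whose product binds laminin, read 1551 and 1852, and ITGB5 4736 and 4558. The middle class held ITGA2, a collagen receptor chain, at 606 and 477. It also held ITGA5, the fibronectin receptor chain, at 369 and 449, and ITGAV at 575 and 537. Over the whole integrin family 13 of 26 genes were detected. The leukocyte integrin genes ITGAL, ITGAM and ITGAX and the platelet chains ITGA2B and ITGB3 were not above background, while the leukocyte chain ITGB2 was detected at 293 and 291.

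**Figure D3:**
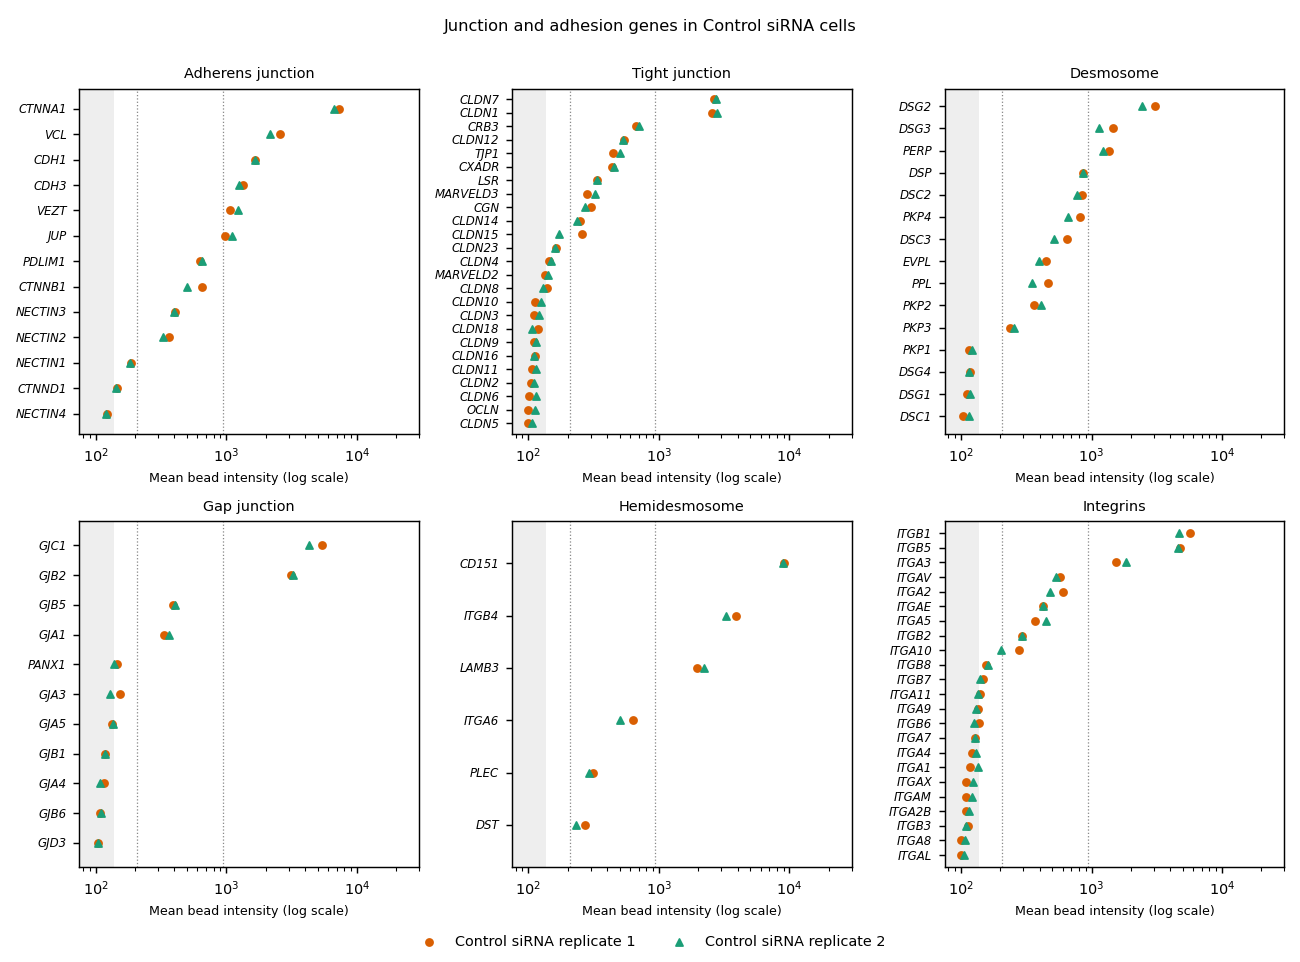
Mean bead intensity of junction and integrin genes on the 2 Control siRNA arrays, drawn as in the plot of lineage genes. CTNNA1, CDH1, CLDN1, CLDN7, DSG2, ITGB4 and ITGB1 lie in the high class, and OCLN, CLDN3, DSG1 and PKP1 lie within the grey band of undetected signals.

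Receptor tyrosine kinases carry growth factor signals, and 16 of 37 measured were detected (43.2%, against 46.6% of all genes). Only 1 was high, DDR1, a collagen receptor of epithelia, at 1189.8 and 982 on the 1 detected of its 3 probes. AXL, counted with the mesenchymal genes, was high too. EGFR, the receptor of EGF and a marker of basal breast cancers, read 369.8 and 386, and 2 of its 4 probes were detected. ERBB2 read 838 and 752 on the 1 detected of its 3 probes. ERBB3 read 352 and 310.3, while ERBB4 was not above background (107 and 104). MET, the receptor of hepatocyte growth factor, read 356 and 349, and MST1R, the related receptor of macrophage-stimulating protein, 242 and 262. The ephrin receptor genes EPHA1, EPHA2 and EPHB4 were in the middle class.

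Several receptor kinases of mesenchymal and endothelial cells were not above background, among them FLT1, FLT4 and TEK, while ROR1 was detected at 279 and 313. PDGFRA read 109 and 107, PDGFRB 104 and 110.1 and KDR 111 and 109.9, all near the negative controls. FGFR1 (102 and 111) and FGFR2 (119 and 100.5) were not above background either, and the insulin-like growth factor receptor gene IGF1R (113 and 127) and the insulin receptor gene INSR (124 and 129.9) lay between the limits.

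Among the ligands of the ERBB receptors 6 of 9 were detected (66.7%, against 46.6% of all genes). TGFA read 951 and 808 and HBEGF 783 and 792, both ligands of EGFR, and EREG read 208 and 209. NRG4, a ligand of ERBB4, read 1289 and 1025, and that receptor gene, as stated, was not above background. EGF itself was not above background (123 and 126), NRG1 was low (152 and 175), and AREG was not analysed here. Detected transcripts of EGFR were thus accompanied by those of several of its ligands.

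Nuclear receptors, transcription factors switched by steroids, retinoids and lipids, were detected in 15 of 26 cases (57.7%, against 46.6% of all genes) in a list without ESR1 and PGR. Where every probe of a gene had to be detected, 9 of the 26 were, beside 7094 of all 20046 genes. PPARG, a receptor of fatty acid derivatives, read 1359 and 1390.5, and RXRA, the partner with which it binds DNA, 1154 and 1322. NR2F6, an orphan receptor gene, read 1104 and 974. The vitamin D receptor gene VDR read 245 and 267 and the retinoic acid receptor gene RARA 410.3 and 333. NR3C1, the glucocorticoid receptor gene, read 174 and 191, in the low class. Detected probes were 2 of 4 for PPARG, 1 of 2 for VDR, 1 of 3 for RARA and 1 of 3 for NR3C1. ESR2, the second estrogen receptor gene, read 112 and 112 and was not above background, as were RARB, RARG and THRB.

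Receptors of developmental signals were more often detected than genes at large, 21 of 28 (75%, against 46.6% of all genes). Of the 28, 2 were high, a class of 11.6% of all genes and so of few members in a list of this size. The median percentile of the detected ones was 30.7. TGFBR2, the ligand-binding chain of the TGF-beta receptor, read 4029.8 and 3640.4. Its signalling partner TGFBR1 read 115 and 115 and was not above background, as was the ligand gene TGFB1 (101 and 105). NOTCH1 read 1485 and 1113, NOTCH2 and NOTCH3 were low and NOTCH4 was not above background. Of the Notch ligands JAG1 read 489 and 546 and JAG2 689.7 and 665, and DLL1 was low. The Hedgehog receptor genes PTCH1 and SMO were not above background.

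Wnt receptors were widely detected and Wnt ligands were not. Of 10 frizzled genes 8 were detected, FZD7 at 545 and 402 in the middle class, and the co-receptor gene LRP5 read 924 and 671. Of 19 Wnt genes 1 was detected, WNT3, which read 172 and 156 in the low class. WNT5A (107 and 109), WNT4 (109 and 114) and WNT6 (108 and 121) were not above background. The shares were 80% and 5.26%, against 46.6% of all genes.

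Cytokine and innate immune receptors were detected in 20 of 30 cases (66.7%, against 46.6% of all genes). Of the 30, 7 were high, a class of 11.6% of all genes. Both chains of the interferon-gamma receptor were high, IFNGR1 at 1231 and 1214 and IFNGR2 at 4063 and 2989. Death receptor genes of the TNF family were high too, with TNFRSF21 at 2634 and 2674 and the TRAIL receptor gene TNFRSF10B at 1877 and 1653. TNFRSF12A, the receptor of TWEAK, read 2220.3 and 2538, and IL20RB, a chain of interleukin 20 family receptors, 1496 and 1617. Of the interleukin 1 receptor chains IL1RAP, the accessory one, read 492 and 442, and IL1R1 (106 and 109), the chain that binds the cytokine, was not above background. Of 6 Toll-like receptors TLR5, the flagellin receptor, was in the middle class (323 and 233), TLR6 was low, TLR1, TLR2 and TLR3 were not above background and TLR4 lay between the limits.

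Of 43 cytokine, chemokine and other ligand genes 15 were detected (34.9%, against 46.6% of all genes). Of the 43, 3 were high, a class of 11.6% of all genes. IL18 read 10710.5 and 11108. The neutrophil chemokine gene CXCL8 read 3237 and 5347 and was brighter on the second array, and CXCL1 read 2803 and 2459.6. CCL20 (446 and 730.3) and IL1A (337 and 536) were brighter on that array as well, and IL1B was low (159 and 217). IL6 (116 and 121), TNF (102 and 109), CCL2 and IL33 were not above background, while VEGFA, the vascular growth factor gene, read 703 and 529.7.

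Among G protein-coupled receptors 10 of 21 were detected (47.6%), a share near the 46.6% of all genes. F2R, the thrombin receptor gene, read 18923 and 15954, but its other probe read 108 and 108 and was not above background. ADORA2B, an adenosine receptor gene, read 2454 and 2802. The receptor genes of lysophosphatidic acid LPAR2 (503 and 569.5) and of nucleotides P2RY2 (265 and 339.9) were in the middle class. The chemokine receptor genes CXCR4, ACKR3 and CCR7 and the stem cell receptor gene LGR5 were not above background.

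**Figure D4:**
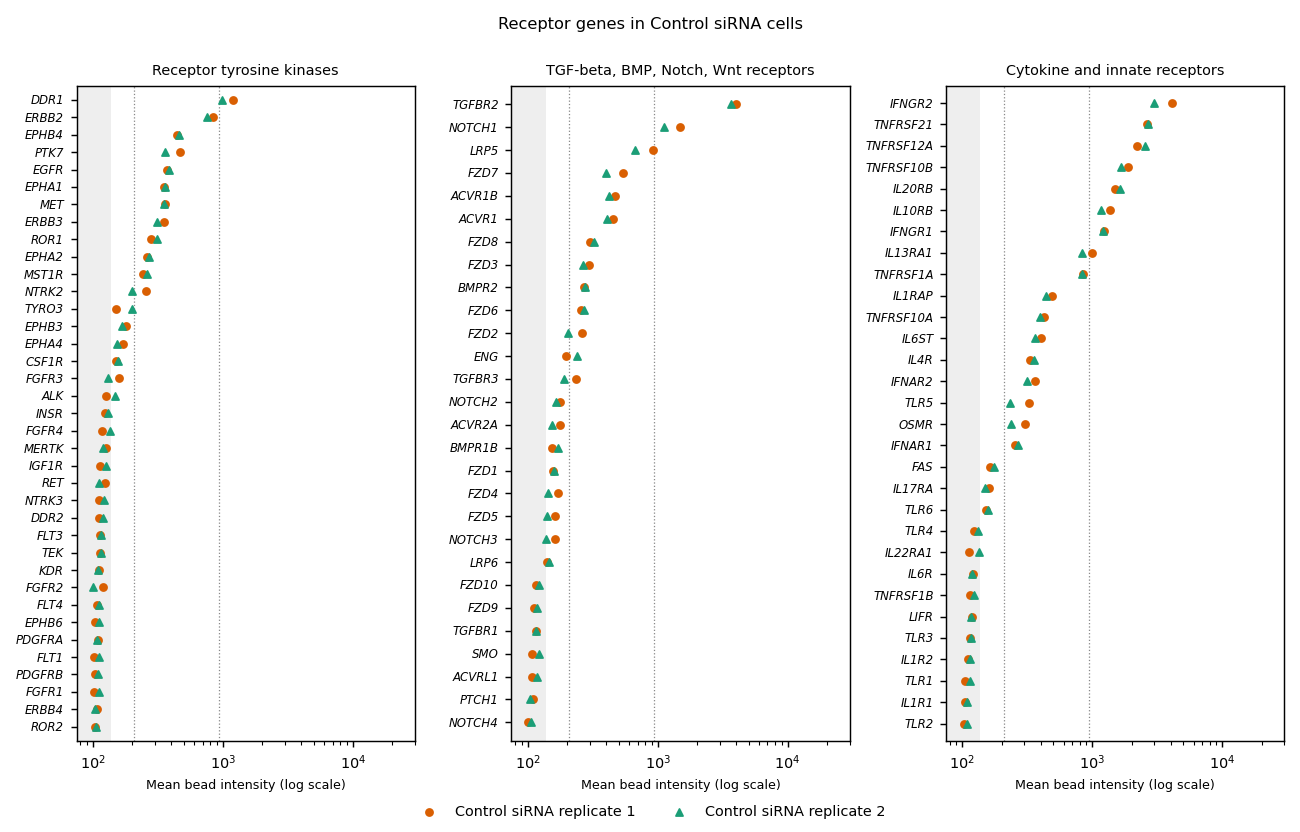
Mean bead intensity of receptor genes on the 2 Control siRNA arrays, drawn as in the plot of lineage genes. DDR1 alone among the kinases passes the upper dotted line, TGFBR2 and NOTCH1 do so in the middle panel, and PDGFRA, FGFR1, TGFBR1 and IL1R1 lie in the grey band.

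Laminin genes were often detected and fibrillar collagen genes were not. Of 10 laminin genes 6 were detected and 3 were high, against 46.6% and 11.6% of all genes. LAMA5 read 3959 and 2555 and LAMC1 2736 and 2032, chains of laminins found under most epithelia, and LAMB1 read 878 and 669. Network collagen IV was present in part, with COL4A1 at 617 and 629.6, COL4A5 at 653 and 486 and COL4A2 low at 187 and 159.5. NID1, NID2 and HSPG2, whose products link laminin to collagen IV or carry heparan sulfate, were not above background. On the second array the detected members of the basement membrane list lay lower, by a median of -0.28 on the log2 scale after centring on all detected genes, in 10 of 11 members, and the cause was not tested.

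Of 43 collagen genes 9 were detected (20.9%, against 46.6% of all genes). COL8A1 was the one in the high class (1242 and 902). The middle class held COL16A1 (815 and 622) and COL12A1 (267 and 246), besides COL4A1, COL4A5 and COL4A6. COL3A1 (97.6 and 112) and COL6A1 (109.5 and 113), collagen genes of fibroblasts, were not above background, and COL6A5 lay between the limits (132 and 128). COL1A1 read 134 and 121, between the limits, and COL1A2 (115 and 119) was not above background.

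Matrix metalloproteinases, which degrade collagens and laminins, were nearly missing, with 2 of 24 genes detected (8.33%, against 46.6% of all genes). These were MMP28, at 816 and 794, and the epithelial matrilysin gene MMP7, at 438 and 344. MMP9 (97.8 and 107), MMP2 (106 and 111) and MMP10 (115 and 123) were not above background, and MMP14 (126 and 129.6) and MMP1 (124 and 122) lay between the limits. Their inhibitor gene TIMP1 read 7705 and 7338.

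In the list of matrix proteases and their inhibitors, which holds part of the MMP genes, 17 of 29 were detected (58.6%, against 46.6% of all genes). PLAT, the tissue plasminogen activator gene, read 6499.8 and 4399, while PLAU, the urokinase gene, was low (200.5 and 184) and its receptor gene PLAUR in the middle class (623 and 583). ADAM15, a membrane-bound metalloprotease gene, read 9832 and 9365. The lysosomal protease gene CTSD read 1954 and 1544, and CTSL 1876 and 1899. SERPINB5, the gene of maspin, an inhibitor-like protein of basal and myoepithelial cells, read 3144 and 3681.

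Cell cycle genes were nearly all detected, 95 of 101, with 39 in the high class, against 46.6% and 11.6% of all genes. Among cyclins, their kinases and inhibitors 26 of 30 were detected (86.7%, against 46.6% of all genes). The G1 cyclin gene CCND1 read 3124 and 3623, CCND3 2640.0 and 2923 and CCND2 744 and 688. Of their kinases CDK4 read 1189 and 1626, and CDK6 1617 and 1812. All D-type cyclins and both kinases were therefore detected. CCNE1 read 182 and 272, whereas CCNE2 was not above background (98.4 and 108), and of the mitotic cyclin genes CCNB2 read 3525 and 3413, and CCNB1 819 and 644.

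Inhibitors of the kinases ranged from high to not above background. CDKN1A, the gene of p21, read 6854 and 6001 on the 1 detected of its 2 probes. CDKN1B, the gene of p27, read 369.7 and 363, while CDKN1C lay between the limits (131 and 118). CDKN2A, the gene of the CDK4 inhibitor p16 and of ARF, read 107 and 114 on the brightest of its 3 probes, and none of them was above background. Its neighbour CDKN2B read 122 and 112 and was not above background, while CDKN2D was in the middle class (223 and 247). RB1, whose product those inhibitors keep active, read 239 and 203.

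Of 35 genes of S phase and DNA replication 33 were detected and 14 were high, against 46.6% and 11.6% of all genes. Of the replicative helicase MCM7 read 3693 and 4556, MCM3 2649 and 3512 and MCM6 1701 and 2424. PCNA, the polymerase clamp gene, read 1199 and 1889. All of these were brighter on the second array. RRM1, a chain of ribonucleotide reductase, read 3475 and 3666, and TYMS, the thymidylate synthase gene, 1215 and 1584. ORC6, a subunit of the origin recognition complex, read 11803 and 10481, with 349.9 and 344 on its other probe. CDC6 and GINS1 lay between the limits, and none of the list was classed as not above background. After centring on all detected genes 31 of 33 detected members were brighter in replicate 2, by a median of 0.51 on the log2 scale, and the cause was not tested.

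All 36 genes of G2 and mitosis were detected, 15 of them high, against 46.6% and 11.6% of all genes. PTTG1, the securin gene, read 9521 and 9039.5, and CDC20, an activator of the anaphase-promoting complex, 6049.7 and 7235. UBE2C, the ubiquitin-conjugating enzyme of that complex, read 2945 and 3211, the mitotic kinase gene AURKA 2282 and 2374, and TOP2A, the DNA topoisomerase of dividing cells, 1940.5 and 2269. PLK1 read 311 and 342 and FOXM1, a regulator of the mitotic genes, 262 and 310.1. MKI67, the gene of the Ki-67 antigen of dividing cells, was the one in the low class, at 152 and 143 on its only probe. The median difference of the list between the arrays was 0.10 on the log2 scale.

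Differences between the arrays depended on whether background was left in the signal. Over the 9334 detected genes the log2 intensities correlated at r = 0.991 across genes, which are not replicates. The median gene differed 1.09-fold after centring and 95% of genes by less than 1.34-fold. At least a 2-fold difference was found in 8 genes, against 97 after background subtraction and 91 with the authors' normalized values. When each array was classed alone, 8628 genes had the same class on both, and 0 were high on one and low on the other. The median bead error of detected genes was 3.86% and 3.32% of the signal. With 1 array per replicate number these differences could not be tested.

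**Figure D5:**
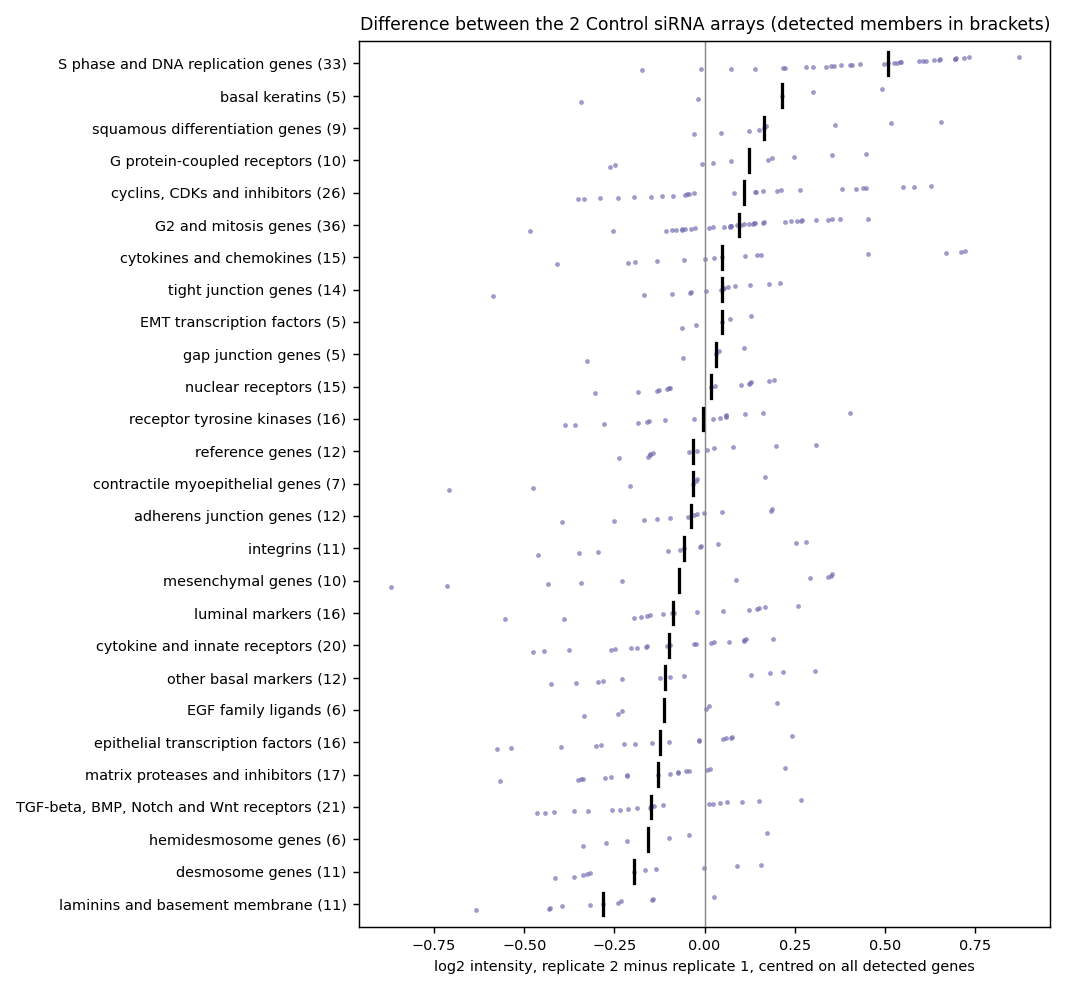
Each point is a detected gene of a list with at least 5 detected members, placed by its log2 intensity in Control siRNA replicate 2 minus replicate 1 after centring on all detected genes, and each black bar is the list's median. The S phase list lies furthest to the right at 0.51 and the basement membrane list furthest to the left at -0.28.

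Markers of other cell types were mostly not detected, 8 of 41 against 46.6% of all genes. Of 9 fibroblast markers 2 were detected, FBLN1, a basement membrane protein gene, at 2639 and 1937 and PDGFRL at 147 and 158, and DCN (119.7 and 126) and LUM (103 and 105) were not above background. Of 8 endothelial markers PECAM1 alone was detected, at 647 and 501, and CDH5 (99.3 and 102) and VWF (112 and 109.8) were not above background. Among 15 immune and blood markers CD14 read 963 and 833, CD68 268 and 285 and the hemoglobin gene HBA2 152 and 188, and PTPRC, the pan-leukocyte gene, was not above background (105 and 109). Of 9 adipocyte and neural markers 2 were detected, both low. Over these lists 25 markers were not above background and 8 lay between the limits, 4 of the last being immune markers. The part of other cells in the signals of the detected markers was not tested.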

How the data were processed

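The authors deposited, per the file headers, a non-normalized mean bead intensity per probe on a linear scale, with its bead standard error, the count of beads behind it and a detection p-value. The lowest intensity, 80.4 units, shows that no background had been subtracted, and the p-values rank a probe among 770 negative controls, the number that their steps imply. The authors also deposited normalized intensities, used here as an alternative only. The software behind either table is not given in the sources used here. Another 8 columns of per-sample values were not used.

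Each array held 47323 probes with a median of 20 or 21 beads, and 34% and 32.5% had a detection p under 0.01. Of the probes 30113 had 1 symbol in the platform annotation, 8 had several and 17202 none, and 30074 matched a RefSeq gene identifier. Kept were 14746 probes, 12071 of them with 1 symbol. Genes without a named probe are given as not analysed here.

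No groups were compared and no test was run: classes, percentiles and counts describe the arrays, whose number limits the precision. The 33 lists (697 genes) and 14 gene families, and the members described, were chosen with earlier results of these data known. Named were list and family members, the 20 genes with the highest mean intensity, and the 8 above-median genes that differed most between the arrays. Collapsing and detection were tested on simulated data. Python 3.11.15, pandas 2.3.3, numpy 2.4.6 and matplotlib 3.10.9 were used. Alternatives were other detection limits, probe rules, background subtraction, the normalized table and 1 array alone.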

Additional observations from a re-analysis of the deposited data

How the results depend on the processing

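The number of detected genes, 9334, was 10340 at a detection p under 0.05, 8484 under 0.001, 10150 with detection on 1 array sufficing, and 7094 where every probe of a gene had to be detected. It was 9618 to 9873 with 1 array left out. Of 198 counts of single lists under these alternatives 187 stayed within 1.5 times the value reported. Where every probe had to be detected, junction genes fell to 30 of the 48 detected, and markers of other cell types to 3 of 8. Both fell by more than 1.5 times, while all detected genes fell from 9334 to 7094. At a detection p under 0.05 the markers of other cell types were 13. Of 392 detected list members 132 were high. That count was 128 with the mean over detected probes, 142 with percentiles over probes, 142 at a detection p under 0.05 and 133 to 140 with 1 array left out. No member went from high to low or back under these alternatives, and none changed class with the normalized table or, by construction, with background subtraction. The median absolute log2 difference between the arrays, 0.125, was 0.201 after background subtraction and 0.197 with the normalized table, where 97 and 91 genes differed at least 2-fold, against 8. Taking off the background lowers both signals by about the same amount and so widens their ratio. This spread has no value with 1 array left out. No paired analysis was possible because a single group was described and no groups were compared.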

Other observations

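Gene families outside the lists above differed in how much of each was detected. Of 20 S100 genes, which encode small calcium-binding proteins, 13 were detected and 11 were high, against 46.6% and 11.6% of all genes. S100A10, the partner of annexin A2, read 16873 and 16571 and ANXA2, the annexin gene, 24067 and 21987. S100A6 read 13826 and 11289, S100P 9013 and 9048 and S100A9 3258 and 2932, while S100A8, the partner of S100A9, was in the middle class (483 and 465) and S100A7 was not above background (104 and 109.9). Proteasome subunits, which every cell needs to degrade proteins, were detected in 33 of 35 cases (94.3%, against 46.6% of all genes). The pair not above background was PSMA8 (103 and 109.8) and PSMB11 (112 and 107), the subunits of the testis and of the thymus. Of 11 metallothionein genes, whose products bind zinc and copper, 5 were detected (45.5%), a share near the 46.6% of all genes. MT2A read 25906 and 22592 and MT1X 5289 and 4341, though metallothioneins are similar enough for probes to share signal. Among 29 HOX genes measured, which mark position along the body axis, 7 were detected (24.1%, against 46.6% of all genes). None was high, a class of 11.6% of all genes. HOXC6 read 491 and 446 on the 1 detected of its 4 probes. HOXC8 read 432 and 364, HOXC13 313 and 347 and HOXB2 398 and 289, and no member of the D cluster was detected. Of the A cluster HOXA2 alone was measured, and it lay between the limits.

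The 20 genes with the highest mean intensity included ribosomal protein genes, the elongation factor gene EEF1A1 (26008 and 23489), TPT1 (27963 and 21716) and the glycolytic genes LDHA (20426 and 19883) and GAPDH (20775 and 18852). SERPINA3, a secreted inhibitor of serine proteases, was also among them at 22683 and 20173. RPL13AP5, annotated as a pseudogene, read 22413 and 22027 and its signal is uncertain, since its parent RPL13A is near-identical. A pair of genes best known from leukocytes, chosen after their values were seen, had 1 very bright probe each. LAIR1 read 19247 and 18288 on one probe and 132 and 135 on the other. CLEC2D read 19976 and 18932 on its brightest of 5 probes, 2042 and 3135 on the next, and had 3 that were not above background.

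The largest differences between the arrays among detected genes of above-median intensity were found for TSC22D3, a glucocorticoid-inducible gene (1714 and 743, a log2 ratio of replicate 2 over replicate 1 of -1.21 after centring), CAPN6 (-1.15), NBPF9 (-1.02) and TNFRSF19 (-1.01). DKK1, a secreted Wnt inhibitor, went the other way (673 and 1369.9, 1.02), as did FOXQ1 (1.01) and the replication gene GINS2 (0.87), and LEMD1 had a ratio of -0.92.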
